A study of Mus musculus with 32 samples.

Results

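The samples described here were the kidneys labelled as NZB/W, late remission, triple therapy. They were chosen by that label alone and number 6 of the 32 kidneys of the series. NZB/W is the lupus-prone hybrid of the NZB and NZW strains. Triple therapy was cyclophosphamide (CTX) with CTLA4Ig, which blocks T cell costimulation, and an antibody against CD154, the CD40 ligand. Each array held RNA of whole kidney, and the kidneys carry the labels replicate 6 to replicate 11. The other NZB/W groups used for comparison were 7 untreated kidneys at 30 weeks without proteinuria, 8 kidneys in early remission after the same triple therapy, and 5 kidneys in late remission after CTLA4Ig with an adenovirus encoding TACI-Ig, a soluble receptor for the B cell factors BAFF and APRIL. The labels give neither age nor sex nor time after treatment for mice in remission, and do not say whether the kidneys came from separate mice, so the spread below is that between these samples. A further 6 kidneys of NZM2410 mice were not used here.

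The authors normalized and batch-corrected the arrays together. Over the 15780 named genes, the group mean never departed by more than 0.026 log2 units from a mean pooled over 12 other samples (30 weeks and TACI-Ig), and these differences had an SD of 0.0045. The level of this group was therefore not compared with any other group, and only differences among its 6 kidneys are described. The limit on the mean used below was applied to these batch-corrected values, and whether the correction also rescaled the spread is not given in the sources used here. Array medians lay between 7.06 and 7.10. The kidney markers were present in every sample, with Umod of the loop of Henle at 13.49 to 13.77 log2 units, Slc34a1 of the proximal tubule at 12.83 to 13.08, Aqp2 of the collecting duct at 9.84 to 10.73 and the endothelial gene Pecam1 at 7.60 to 8.07.

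The kidney in lupus holds several cell populations whose number can differ from animal to animal. Immune complexes draw macrophages into it, B cells and plasma cells can gather in lymphoid aggregates, and interferons switch on defined sets of genes in resident and infiltrating cells. A whole kidney sample can also carry perirenal fat, blood, lymph node or adrenal gland, and some of its genes follow the time of day, stress hormones or the handling of the tissue. In whole tissue, fewer cells of a type and less RNA per cell cannot be told apart.

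Most genes varied little among the 6 kidneys. Of 10692 genes with a mean of at least 6 log2 units, the median SD was 0.144, the top 10% began at an SD of 0.276, and 236 genes (2.21%) had an SD of at least 0.5, among them 28 with an SD of at least 1. The corresponding shares in the other groups, each at its own mean of at least 6, were 1.82% in early remission, 3.43% after TACI-Ig and 2.21% at 30 weeks. Just above the limit on the mean, the genes of largest SD were Ubd (mean 6.02, SD 1.01), Cd48 (6.02, 0.81) and Serpina3n (6.05, 0.78). Just below it, and therefore not ranked, were Ccl12 (mean 5.98, SD 0.90), Klra17 (5.98, 0.87) and Clec4a2 (5.92, 0.72). The SDs rank the genes and were not tested as such.

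Immunoglobulin and fat genes headed the ranking. Of the 25 genes of largest SD, 12 were immunoglobulin chain genes and 5 were genes of the adipose tissue list. The heavy chain variable segment Ighv1-14 had the largest SD of all (1.75), with log2 values of 4.97, 7.45, 7.57, 6.94, 8.02 and 3.60 in replicates 6 to 11. The kidneys were thus drawn out on both sides of the mean, with replicates 6 and 11 low. For Ighg3, the constant region of IgG3, the values were 8.45, 9.74, 9.21, 9.11, 9.82 and 5.35 (SD 1.67), and for Ighg2b, that of IgG2b, 8.28, 8.60, 8.62, 8.52, 8.96 and 4.66 (SD 1.62). In both genes replicate 11 lay far below the other 5 kidneys, which lay close together for Ighg2b and farther apart for Ighg3. Adipoq, which encodes the fat cell hormone adiponectin, read 6.12 in replicate 6 and 9.84 to 10.52 in the other kidneys (SD 1.66). These SDs rested on single kidneys, since without replicate 11 that of Ighg3 was 0.55 and that of Ighg2b 0.24, and without replicate 6 that of Adipoq was 0.30 and that of Car3, another fat gene, 0.35. Without replicate 11, Ighv1-14 kept an SD within 1.5 times of its value. Of the 25 genes, 15 had their lowest value in replicate 11 and 6 in replicate 6, and 12 had their highest value in replicate 10 and 7 in replicate 7.

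**Figure D1:**
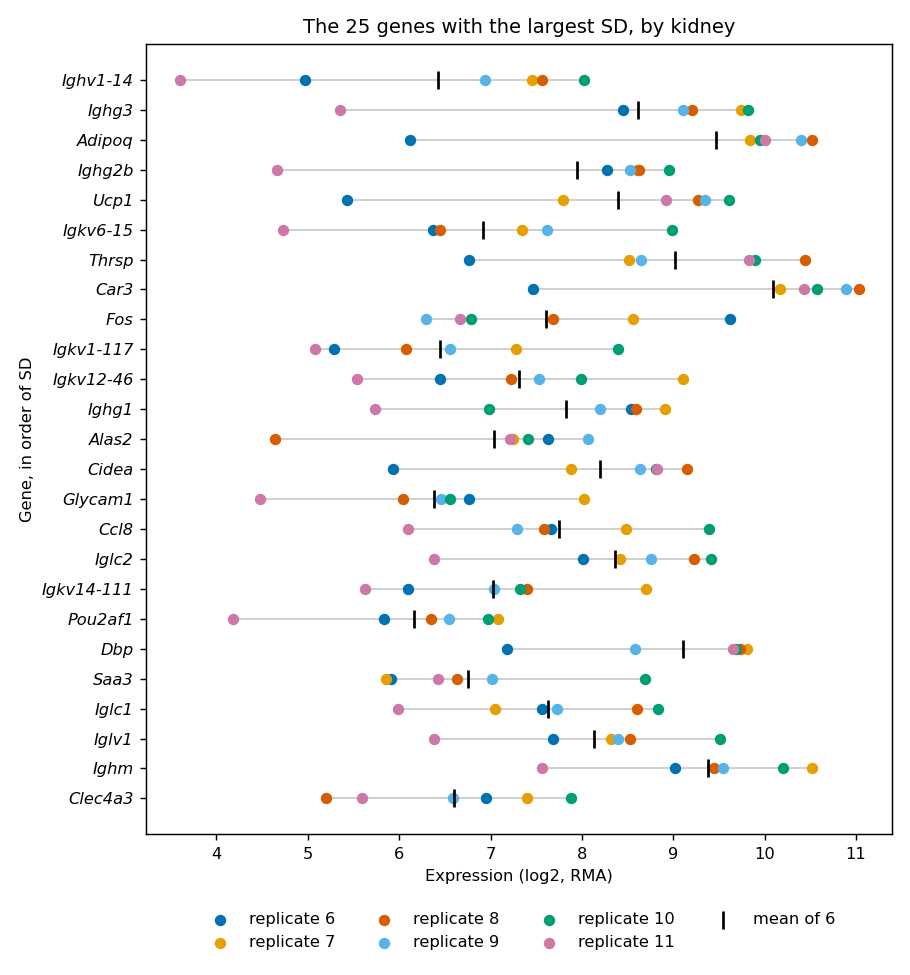
Log2 expression (RMA, horizontal axis) of the 25 genes of largest SD, 1 row per gene in order of SD, with a point for each of the 6 kidneys and a bar for their mean. Replicate 11 is lowest in 15 genes, most of them immunoglobulin genes, and replicate 6 is lowest in 6 genes, among them Adipoq at 6.12 and Ucp1 at 5.43.

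The same genes were also variable in the other NZB/W kidneys, which the ranking did not use. Of the 25, 24 were in the top 10% of SDs in early remission, 25 after TACI-Ig and 24 at 30 weeks. The fat gene Car3 was the exception at 30 weeks, with an SD of 0.24 there against 1.32 among the 6 kidneys. The acute-phase gene Saa3 was the exception in early remission, with an SD of 0.17 among 8 kidneys. Of the 300 genes of largest SD, 146 (48.7%), 189 (63%) and 195 (65%) were also among the 300 most variable of the same genes in early remission, after TACI-Ig and at 30 weeks, where 300 genes are 2.81% of those ranked.

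Clustering the 300 genes by their profile over the 6 kidneys gave 6 groups of at least 10 genes that varied together, 240 genes in all. The groups were formed on these kidneys, so their agreement within them is a description, and the other 20 NZB/W kidneys, with group means removed, were used to ask whether the same genes also varied together there. The groups are numbered by size, from group 1 with 122 genes to group 6 with 11. Over all 300 genes, the median correlation between pairs of genes was 0.21 in the 6 kidneys and 0.15 in the other 20.

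**Figure D2:**
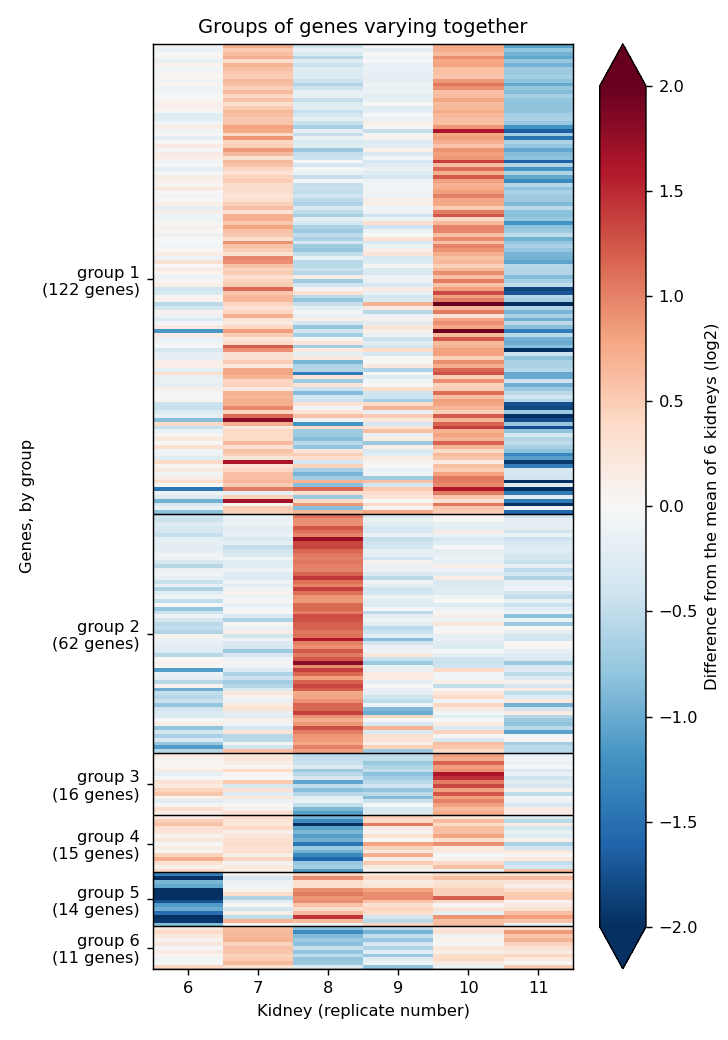
Difference of each of 240 genes (rows, by group) from its mean over the 6 kidneys (columns), in log2 units from blue (lower) to red (higher), with colours ending at 2. Group 1 is high in replicates 7 and 10 and low in replicate 11, group 2 high in replicate 8, group 3 high in replicate 10, group 4 low in replicate 8, group 5 low in replicate 6, and group 6 low in replicates 8 and 9.

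Group 1 held leukocyte genes. Its mean profile, in log2 units from the group mean, was -0.07, 0.56, -0.31, -0.06, 0.81 and -0.94 in replicates 6 to 11, so replicates 7 and 10 were high and replicate 11 was low. Replicate 10 was highest in 101 of the 122 genes, and replicate 11 was lowest in 99. The genes closest to the mean profile were Coro1a, an actin regulator of leukocytes, Adcy7, the leukocyte membrane genes Cd53 and Cd52, Glipr1, Ly86, Prkcb and Selplg, which encodes the P-selectin ligand. Cd52 read 9.31, 10.01, 8.73, 9.20, 10.21 and 8.25 log2 units, a range of 1.96 log2 units between replicates 10 and 11. In the other 20 kidneys the median correlation between pairs of these 122 genes was 0.81, and 0.73 without replicate 2 of the 30-week group. It was 0.72 in early remission, 0.85 after TACI-Ig and 0.90 at 30 weeks, and 116 of the 122 genes correlated above 0.5 with the rest of the group in the 20 kidneys.

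Of 19 immunoglobulin chain genes measured, taken by symbol after the values were seen, 17 had a mean of at least 6 and 16 of these were in the top 10% of SDs. Of the 17, 12 were in group 1, and Igkc, Igha, Ighg1, Iglc1 and Igkv4-57 were not. The gene outside the top 10% was Igkc, the kappa constant region, at 11.71 to 12.35 log2 units (SD 0.23) and among the brightest of them. Replicate 11 was lowest in 16 of the 17 genes, the exception being Igha, the constant region of IgA, which was lowest in replicate 7. Replicate 11 was also lowest in Mzb1, a chaperone of antibody-secreting cells (6.46, against 7.79 to 9.01 in the other kidneys), and in Pou2af1, a B cell coactivator (4.19, against 5.83 to 7.08). The isotypes did not share a single order. Ighm, the constant region of IgM, was highest in replicate 7 (10.52) and Ighg3 in replicate 10 (9.82), and Ighg1, the constant region of IgG1, was low in replicate 10 (6.98) as well as in replicate 11 (5.74), against 8.20 to 8.90 in the others. Variable segments resemble each other, and signal may be shared between their probes, so the order of single segments is uncertain.

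MHC class II and macrophage genes followed a narrower version of the same profile. All 7 measured MHC class II genes with a mean of at least 6 were in group 1 and in the top 10% of SDs, with a median correlation of 0.98 between them. Cd74, the invariant chain that guides class II molecules to peptide, read 11.17, 11.35, 10.62, 10.99, 11.91 and 10.23 log2 units, highest in replicate 10 and lowest in replicate 11. H2-Aa, a class II alpha chain, read 10.78, 11.06, 10.27, 10.68, 11.59 and 10.09 in the same order of kidneys. Of 14 genes of the macrophage and dendritic cell list, 13 were in the top 10% of SDs, all but Csf1r, and 12 were highest in replicate 10. Replicate 8 was lowest in 8 of them and replicate 11 in 6, so the low end of the macrophage genes was divided between these kidneys. Adgre1, which encodes the macrophage marker F4/80, was lowest in replicate 8 (6.59) and Cd68, of lysosomes, in replicate 11 (6.10). Among T cell genes, all 5 with a mean of at least 6 were in the top 10%, and Cd3d, of the T cell receptor complex, read 7.12 in replicate 7 and 6.82 in replicate 10 against 5.45 to 6.20 in the others. Only 2 B cell list genes passed the limit, and of these Cd79b, of the B cell receptor, ranged from 5.21 in replicate 11 to 7.54 in replicate 7.

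Chemokines, complement and dividing-cell genes lay in the same group in part. Of 11 genes of the chemokine list, 9 were in the top 10% of SDs and 10 were highest in replicate 10, Cxcl1 being the exception. Ccl8, a monocyte attractant, read 7.66, 8.49, 7.58, 7.29, 9.39 and 6.10 log2 units, and Cxcl13, which draws B cells into follicles, 7.15, 8.01, 7.76, 7.34, 8.80 and 5.76. The lymph node gene Glycam1, expressed on high endothelial venules, read 8.02 in replicate 7 and 4.48 in replicate 11, and 6.04 to 6.77 in the others. Only 2 of the 5 measured lymph node list genes had a mean of at least 6, Glycam1 and Cxcl13, and both were in group 1. Their part in the immunoglobulin and B cell profile was not tested. All 3 chains of C1q, the first complement component, were in group 1, with C1qb at 10.29 in replicate 10 and 8.37 in replicate 9. Of 9 genes of the cell cycle list, 6 were in the top 10% and 7 were lowest in replicate 11, with Mki67 at 7.01 there and 8.37 in replicate 10. Collagen genes Col1a1, Col1a2 and Col3a1 were also in group 1, with Col3a1 at 10.61 in replicate 10 and lowest, at 9.22, in replicate 8. In the other 20 NZB/W kidneys these genes correlated with the rest of the group at 0.32, 0.29 and 0.34.

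Of the 14 interferon-inducible list genes with a mean of at least 6, 6 were in group 6, 1 (Cxcl10) was in group 3 and 7 were in neither. Interferons act through the factors STAT and IRF, and IRF factors bind a repeated GAAA element, the interferon-stimulated response element. Group 6 held Oasl2, Ifit1, Usp18, Irf7 and Rtp4 among others, and its profile was 0.14, 0.55, -0.73, -0.52, 0.15 and 0.41 in replicates 6 to 11. Ifit1, an antiviral RNA-binding protein, read 7.64, 7.88, 6.0, 6.33, 7.55 and 8.10 log2 units, and Irf7, which amplifies the interferon response, 7.86, 8.48, 7.05, 7.03, 7.86 and 8.46. Replicates 8 and 9 were low in both genes, and replicate 11, low in antibody and myeloid genes, was at or near the top. With array medians centred, only 8 of the 11 genes of group 6 stayed among the 300 and still shared a cluster, too small to count as a group, and after quantile normalization 10 stayed and 8 shared one. Group 3 held Igtp, Ifi47, Iigp1, Irgm1 and Gbp2, which encode interferon-inducible GTPases, the chemokine gene Cxcl10 and the MHC class I gene H2-K1. Its profile was 0.13, 0.12, -0.57, -0.53, 1.0 and -0.15, and all 16 genes were highest in replicate 10. Iigp1 read 8.34, 8.57, 7.98, 7.70, 10.16 and 8.39. Group 3 also held Cyp2d12, a cytochrome P450 that lay closest to its mean profile, and Cyp27b1, which activates vitamin D (7.57 in replicate 10 and 5.76 to 6.44 in the others).

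The promoter letters of these interferon groups are shown because their members moved together. The pattern GAAANNGAAA was searched on both strands, from 250 bases before to 50 bases after each RefSeq start (GRCm38.p6), a choice made after the values were seen. It was present in 4 of the 12 genes of group 3 with a promoter in the table, in 1 of 8 of group 6 (12.5%), in 10 of 90 of group 1 (11.1%) and in 446 of 12585 measured genes (3.54%), and no test was run on these counts. The matches that ended before the start are given below 5′ to 3′ in the direction of the gene, with the match in capitals, as GAAANNGAAA or its reverse complement.
Igtp, chr11:58199507-58199546, plus strand: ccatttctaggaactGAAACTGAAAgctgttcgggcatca
Gbp2, chr3:142620589-142620628, plus strand: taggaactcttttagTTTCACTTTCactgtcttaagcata
Cxcl10, chr5:92349078-92349117, minus strand: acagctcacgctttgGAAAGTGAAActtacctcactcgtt
Irgm1, chr11:48871421-48871465, minus strand, 2 overlapping matches: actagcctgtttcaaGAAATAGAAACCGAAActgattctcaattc
Ifit1, chr19:34640770-34640828, plus strand, 2 matches: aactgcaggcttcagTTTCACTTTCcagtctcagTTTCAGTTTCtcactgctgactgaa
The first 4 belong to group 3 and the last to group 6, so the pattern was present in both groups. It was absent from the windows of the other genes searched in both groups, which says only that these letters are not there.

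In the other 20 kidneys the genes of group 6 kept a median correlation of 0.79, and 10 of its 11 genes correlated above 0.5 with the rest. The exception was Sucnr1, which encodes the succinate receptor (0.32). For group 3 the median was 0.38, with 10 of 16 genes above 0.5. Its interferon members were among these (0.92 for each of Igtp, Ifi47, Iigp1 and H2-K1), whereas Cyp2d12 correlated at -0.44 with the rest. Across the 20 kidneys the mean profiles of groups 3 and 6 correlated at 0.92 and those of groups 1 and 6 at 0.84. Of 14 genes of the interferon-inducible list, 13 were in the top 10% of SDs, all but Mx2. Of these 14, 9 were highest in replicate 7 and 4 in replicate 11.

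**Figure D3:**
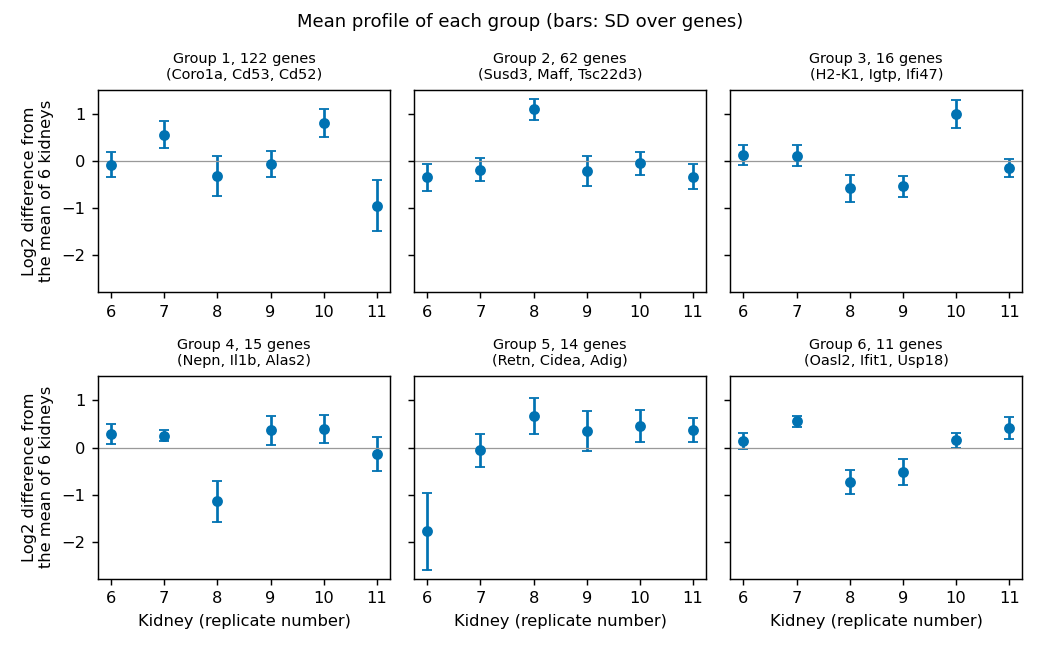
Mean difference from the mean of the 6 kidneys (log2, vertical axis) for the genes of each group, by kidney (horizontal axis), with bars for the SD over genes. Replicate 8 stands at 1.10 in group 2 and -1.15 in group 4, and replicate 6 at -1.78 in group 5.

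Group 5 held fat cell genes, low in replicate 6. Its profile was -1.78, -0.06, 0.67, 0.35, 0.45 and 0.36 in replicates 6 to 11, and all 14 genes were lowest in replicate 6. Ucp1, the uncoupling protein of brown fat, read 5.43, 7.79, 9.27, 9.35, 9.61 and 8.92 log2 units, and Cidea, a lipid droplet protein, 5.93, 7.88, 9.15, 8.63, 8.81 and 8.82. Replicate 6 was low and replicate 7 was next lowest in both. Thrsp, a gene of lipid synthesis, was 6.77 in replicate 6 and 8.51 to 10.44 in the others. All 12 genes of the adipose tissue list with a mean of at least 6 were in the top 10% of SDs and all 12 were lowest in replicate 6. The list score, the mean difference of its genes from the group mean, was -1.64 in replicate 6 and -0.22 to 0.75 in the others. The SD of this score was 0.86, against 0.40 in early remission, 0.81 after TACI-Ig and 0.21 at 30 weeks. In the other 20 kidneys the median correlation within group 5 was 0.49. Dbp, a clock output gene, and Mc2r, the corticotropin receptor, were placed in group 5 by their low values in replicate 6 and did not follow its other genes in the 20 kidneys (-0.01 and -0.23). Without replicate 6, only 3 of the 14 genes stayed among the 300 of largest SD.

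Groups 2 and 4 were set by replicate 8. Group 2 had 62 genes, all highest in replicate 8, with a profile of -0.34, -0.18, 1.10, -0.21, -0.04 and -0.33. It held 6 of the 10 glucocorticoid-inducible list genes and 4 of the 15 clock list genes with a mean of at least 6. Tsc22d3, the glucocorticoid-induced leucine zipper, read 8.77, 8.77, 10.29, 8.53, 8.71 and 8.64 log2 units, and Fkbp5, a chaperone of the glucocorticoid receptor, 8.29, 8.20, 9.88, 7.91, 8.60 and 7.84. Replicate 8 stood above the other 5 kidneys in both, with no overlap. Noct, a gene under clock control, was 9.34 in replicate 8 against 7.15 to 7.43, and Cxcl1, a neutrophil attractant, 8.64 against 6.10 to 6.93. Angptl4, an inhibitor of lipoprotein lipase induced by fasting, was 10.22 against 8.17 to 9.64, and Pck1, of gluconeogenesis, 13.05 against 11.58 to 12.55. Of the genes closest to the mean profile, Susd3, Maff, Cwh43, Slc25a33, Cyp2d9 and Lpin1 were likewise highest there. Without replicate 8, only 13 of the 62 genes stayed among the 300 of largest SD.

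All 10 genes of the glucocorticoid-inducible list were in the top 10% of SDs, and 9 were highest in replicate 8, Pdk4 being highest in replicate 9. The list score was 1.01 in replicate 8 and -0.25 to -0.16 in the other kidneys. Its SD was 0.49, against 0.31 in early remission, 0.20 after TACI-Ig and 0.26 at 30 weeks. The median correlation between pairs of these list genes was 0.90 in the 6 kidneys and 0.08 in the other 20. Unlike group 1, group 2 had little correlation elsewhere. The median over pairs of its genes was 0.12 in the other 20 kidneys, which is below the 0.15 of all 300 genes, and 14 of its genes correlated below 0 with the rest. A part of it did move together there, since 26 genes correlated above 0.5 with the rest, among them Noct (0.86), Angptl4 (0.83), Fkbp5 (0.78), Pck1 (0.76), Per1 (0.76), Per2 (0.76) and Tsc22d3 (0.75). Cyp2d9 (-0.03), Cwh43 (-0.15) and Cdkn1a (-0.32), the cell cycle inhibitor p21, did not.

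Group 4 was the reverse, with 15 genes all lowest in replicate 8 and a profile of 0.28, 0.25, -1.15, 0.36, 0.39 and -0.14. Alas2, the first enzyme of heme synthesis in red cells, read 7.62, 7.25, 4.64, 8.07, 7.41 and 7.21, and Il1b, interleukin 1 beta, 7.57, 7.36, 5.80, 7.48, 7.71 and 6.54. Ccr2, the receptor that brings monocytes from blood (5.05 in replicate 8, 5.76 to 6.73 in the others), its ligand Ccl2 (6.44 against 7.40 to 7.76) and Fpr2, a receptor for formyl peptides (5.53 against 6.36 to 7.91), were in the same group. Only 3 genes of the red blood cell list had a mean of at least 6, Alas2 being 1 of them. The others were Klf1 (7.25 in replicate 8, its lowest value, and 7.34 to 7.70 in the others) and Rhd (6.27 to 6.63, not lowest in replicate 8). The paper's methods state that kidneys were taken after perfusion with saline through the heart. They describe mice before and during nephritis and not the mice in remission, so perfusion of these kidneys is not stated there. The neutrophil list had 5 genes with a mean of at least 6. Its score was lowest in replicate 8 (-0.13, against -0.11 to 0.09 in the others). Of these 5 genes, 0 were highest in replicate 8 and 2 were lowest there. These 2 were Cxcr2 (6.75, against 7.05 to 7.69) and Ltf (5.87, against 5.92 to 6.27). Among the list's genes below that limit, S100a8 (6.84, against 4.50 to 5.94), S100a9 (7.07, against 4.86 to 6.45) and Mmp8 (6.52, against 5.62 to 5.93) were highest in replicate 8. The remaining genes below it were not. Mmp9 was lowest in replicate 8 (5.10), Mpo was near its lowest (5.22, against 5.17 to 5.86), and Camp was highest in replicate 9 (6.23). The median correlation within group 4 was 0.10 in the other 20 kidneys and 0.29 without replicate 2 of the 30-week group. In the 20 kidneys 9 of its 15 genes correlated above 0.5 with the rest, among them Ccr2 (0.81) and Fpr2 (0.71). Another 5 correlated below 0, among them Nepn (-0.30), which lay closest to the mean profile, Dleu7 (-0.29) and Clec2h (-0.28). Without replicate 8 of the triple therapy kidneys, 2 of the 15 genes stayed among the 300 of largest SD. On the array's own controls, the 3′ minus 5′ signal of pyruvate carboxylase was 3.24 log2 units in replicate 8 and 2.45 to 2.86 in the others, and that of the transferrin receptor 2.05 against 1.42 to 1.83. For beta-actin (0.84) and Gapdh (0.09) replicate 8 lay within the range of the others. The part of RNA quality in groups 2 and 4 was not tested.

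**Figure D4:**
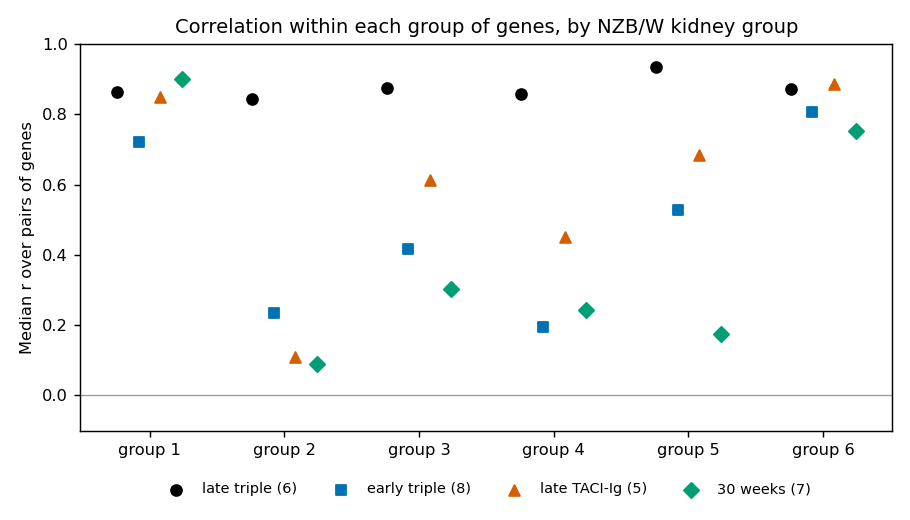
Median correlation over pairs of genes (vertical axis) within each group of genes (horizontal axis), in the 6 kidneys that formed the groups (black) and in the early-remission (8), TACI-Ig (5) and 30-week (7) kidneys. Groups 1 and 6 lie at 0.72 or above in each kidney group, and group 2 lies between 0.09 and 0.24 outside the 6 kidneys.

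Of the clock genes, 4 lay in group 2 (Per1, Per2, Ciart and Usp2) and Dbp lay in group 5. In the molecular clock, Arntl (BMAL1) drives transcription of the Per and Nr1d genes and of Dbp, which peak at another time of day than Arntl. Of 15 genes of the circadian list, 12 were in the top 10% of SDs. Dbp read 7.18, 9.81, 9.73, 8.58, 9.69 and 9.65 log2 units and Arntl 8.54, 6.93, 6.22, 7.72, 6.98 and 7.19 in replicates 6 to 11. Replicates 6 and 9 thus had the lowest Dbp and the highest Arntl. Replicate 6 was lowest in 8 of the 15 genes, including Per3 (5.96) and the repressor Nr1d1 (7.72). Replicate 8 was highest in 8, including Per1 (9.41) and Per2 (7.75). It was also highest in 7 and lowest in 4 of the 13 collecting duct genes. The share of all genes with their extreme in each kidney is not given here, so these counts were not set against it. The exact E-box CACGTG, which Arntl and its partner bind, was found in 3 of 13 clock promoters searched on both strands (Tef, Per1 and Ciart) and in 10.5% of all genes. It was as frequent in promoters of the immediate early genes described below, at 3 of 13, and no test was run on these counts. The D-box TTATGTAA, bound by Dbp, was found in 1 of 13 (Per3, at 2 places) and in 0.779% of all genes. The matches of Per1 and Per3 are shown, in capitals, as an example of each element among the Per genes.
Per1, E-box, chr11:69098768-69098803, plus strand: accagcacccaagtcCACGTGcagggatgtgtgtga
Per3, D-box, chr4:151044848-151044885, minus strand: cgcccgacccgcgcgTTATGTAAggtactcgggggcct
Per3, D-box, chr4:151044801-151044838, minus strand: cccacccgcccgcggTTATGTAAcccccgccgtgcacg
Per1 was highest in replicate 8 and, at 7.73 in replicate 6, close to its lowest value of 7.69 in replicate 9. Per3 was lowest in replicate 6 and lay between 6.40 and 6.93 in the other kidneys. Of the other genes with an E-box, Tef (8.47) and Ciart (6.90) were among the 8 of 15 list genes lowest in replicate 6.

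Immediate early genes, which cells switch on within minutes of a stimulus, including tissue handling, were high in replicate 6. Of 17 genes of the list, 13 were in the top 10% of SDs, 10 were highest in replicate 6 and 6 in replicate 8. Fos, a subunit of AP-1, read 9.62, 8.56, 7.69, 6.29, 6.79 and 6.67 log2 units, and Egr1, a zinc finger factor, 10.46, 9.84, 9.27, 8.35, 8.32 and 8.61. Replicates 6, 7 and 8 lay above replicates 9, 10 and 11 in both. For Dusp1, a MAP kinase phosphatase, the highest kidney was replicate 8 (11.37), followed by replicate 6 (11.13), and Zfp36 (10.06 and 9.97) and Nr4a1 (9.31 and 9.58) were also high in these kidneys. The list score was 0.62 in replicate 6, 0.16 in replicate 7 and 0.32 in replicate 8, and -0.41 to -0.33 in the others. The cyclic AMP response element TGACGTCA was found on either strand in 2 of 13 immediate early promoters (Dusp1 and Btg2) and in 3.05% of all genes.

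Seen by kidney, replicate 8 stood farthest from the rest. Genes more than 2-fold from the mean of the other 5 kidneys numbered 84 higher and 32 lower in replicate 8 (1.08% of genes), 66 higher and 3 lower in replicate 10 (0.645%), and 3 higher and 61 lower in replicate 11 (0.599%). The numbers were 7 higher and 23 lower in replicate 6 (0.281%), 18 higher and 5 lower in replicate 7 (0.215%), and 6 higher and 8 lower in replicate 9 (0.131%). The first principal component of the 10692 genes held 36.5% of the variance and separated replicate 8 (25.6, against -7.93 to 0.29). The second held 27% and ran from replicate 10 (-12.3) to replicate 11 (18.7). Beyond the genes named above, replicate 7 was lowest in Serpina6, the corticosteroid-binding globulin (6.32, against a mean of 7.97 in the other 5), in Ly6f (7.27 against 8.84) and in the protease inhibitor Serpina1c (6.81 against 7.92). Replicate 9 was highest in Ces2b (9.56 against 8.26) and in Cyp24a1, which degrades vitamin D (10.28 against 9.05), and lowest in Hpd, of tyrosine breakdown (9.52 against 11.09), and in Lcn2 (6.13 against 7.56). Replicate 10 was highest in Saa3 (8.69 against 6.37) and lowest in Id1, an inhibitor of helix-loop-helix factors (8.81 against 10.01), and Gadd45g (8.34 against 9.50). Replicate 11 was highest in Susd2 (11.36 against 10.33) and Prss2, a trypsinogen of the pancreas (7.32 against 6.31). The pancreas list had 5 genes with a mean of at least 6, and its score was 0.33 in replicate 11 and -0.19 to 0.08 in the others. Replicate 8 was also highest in BC018473 (9.24 against 7.32) and lowest in Dleu7 (6.6 against 8.49).

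**Figure D5:**
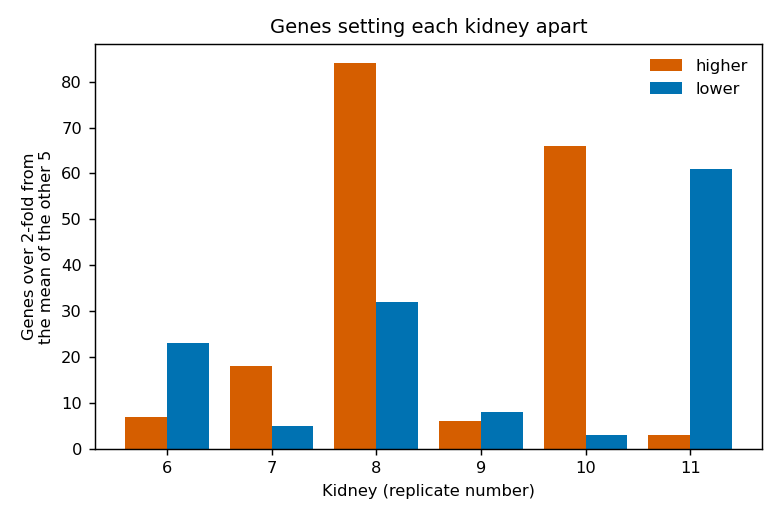
Number of genes (vertical axis) more than 2-fold higher (orange) or lower (blue) than the mean of the other 5 kidneys, for each kidney (horizontal axis), of 10692 genes. Replicate 8 has 84 higher and 32 lower genes, replicate 10 has 66 higher and replicate 11 has 61 lower.

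The sample names of replicates 6 and 10 share the code V11, whose meaning is not given. Those of replicates 8 and 9 (V90 and V9LL) may also share a part, and the deviations of these kidneys correlated at -0.30 over the 10692 genes. For replicates 6 and 10 the deviations from the group mean correlated at -0.24, and 8 of the other 14 pairs of kidneys had a higher value. The correlation of the log2 levels of replicates 6 and 10 was 0.983, within the 0.973 to 0.991 of the other pairs.

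Respiratory chain genes varied little, with a median SD of 0.068 against 0.144 over all genes, and none of the 15 with a mean of at least 6 were in the top 10% of SDs. All but Cycs were bright, with means from 11.45 (Ndufs1) to 13.74 (Atp5b). Cycs, with a mean of 6.35, had the largest SD of the list (0.20). Genes of matching level were not compared. The lists of resident kidney cells had median SDs above that of all genes. None of 7 podocyte genes (median SD 0.158), 1 of 13 genes of the loop of Henle and distal tubule (0.189), 1 of 11 endothelial genes (0.221), 3 of 13 collecting duct genes (0.215) and 5 of 16 proximal tubule genes (0.163) were in the top 10%. The loop of Henle list score was highest in replicate 11 (0.15, against -0.07 to 0.02 in the others). Of the proximal tubule genes, Pck1 (SD 0.55) and Slc7a13, an amino acid carrier subunit (SD 0.49), varied most. In the smooth muscle list, Actg2 varied most (SD 0.57) and replicate 6 was lowest in 6 of the 8 genes. Of 13 genes of the tubular injury list, 5 were in the top 10%, namely Lcn2, Timp1, Cd44, Havcr1 and Vcam1. Lcn2 (lipocalin 2) read 7.28, 7.59, 8.14, 6.13, 8.39 and 6.43 log2 units and Havcr1 (kidney injury molecule 1) 8.72, 8.52, 9.04, 9.80, 9.04 and 8.93, so replicate 9 had the lowest Lcn2 and the highest Havcr1. Il1f6 varied less, from 6.23 in replicate 9 to 6.87 in replicate 7.

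Whether the spread differed from that of the other NZB/W groups was tested on the distance of each kidney from its group mean, with limma and Benjamini-Hochberg adjustment. Against early remission after the same therapy, 6 of 10619 genes (0.0565%) passed an adjusted p of 0.05, all with a narrower spread in late remission, and all are genes of the adrenal gland. They were Cyp11a1, Cyp11b1, Star and Cyp21a1, which make steroids in the cortex, and Chga and Chgb, the chromogranins of the medulla. Cyp11b1 lay between 6.92 and 7.21 in the 6 kidneys (SD 0.11) and between 4.66 and 9.45 in the 8 early-remission kidneys (SD 1.99). The mean distance differed by -1.81 log2 units (SE 0.23, adjusted p = 0.00566). For Star the SDs were 0.11 and 1.70 (difference -1.53, SE 0.21, adjusted p = 0.00768), and for Chga 0.21 and 1.26 (-1.03, SE 0.16, adjusted p = 0.0182). The SD of the adrenal list score was 0.12 in the 6 kidneys, 1.27 in early remission, 1.38 at 30 weeks and 0.07 after TACI-Ig. These calls rested on early-remission replicates 2 and 7, since 0 genes passed without either of them. At an unadjusted p of 0.05, 391 of the 10619 genes were wider and 293 narrower in late remission. With deviations taken from the group median instead of the mean, 214 were wider and 141 narrower. If no spread differed and the test held its nominal level, a share of about 0.05 of the genes tested would fall below that p. This applies here and in the comparisons below. The unadjusted counts are therefore not calls of single genes.

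Against the other groups 0 genes passed with limma. After TACI-Ig, 0 of 10631 genes (0%) passed, and at an unadjusted p of 0.05, 48 were wider and 1121 narrower in the triple therapy kidneys. With deviations from the group median, only 16 were wider and 230 narrower, so the unadjusted counts depended strongly on how distance was measured. The median SD was 0.143 against 0.181. The count of 0 passing depended on single TACI-Ig kidneys. Without replicate 3, 312 genes passed (311 narrower after triple therapy), with 60 without replicate 2 and 4 without replicate 1. At 30 weeks, 0 of 10611 genes (0%) passed, and 4 passed without replicate 2 of that group. At an unadjusted p of 0.05, 233 were wider and 220 narrower, and 105 and 54 with deviations from the group median. The distance test passes few genes with groups of this size, so the counts do not show that spreads were equal.

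Correlations across the 6 kidneys were tested for 9 pairs of genes with two-sided exact permutation tests over the 720 orders of the kidneys, adjusted over the 9 pairs. The pairs were chosen with earlier results of these data known, so the p-values are not independent support for the groups described above. Pearson's r passed for 5 pairs, for 0 pairs when replicate 6 was left out, and for 4 or 5 when any other kidney was. With 5 kidneys the smallest possible p is larger, and no pair can pass after adjustment unless other pairs are also low. The count of 0 therefore does not show that every pair rested on replicate 6. Cd74 and H2-Aa had an r of 0.99 (p = 0.00139, adjusted p = 0.0125) and a rho of 1 (p = 0.00278, adjusted p = 0.0125), and r was 0.99 without the 2 kidneys farthest from the median of Cd74. Cd68 and Ctss, a lysosomal protease, had an r of 0.97 (p = 0.00417, adjusted p = 0.0125, exact permutation test), a rho of 1 (p = 0.00278, adjusted p = 0.0125) and an r of 0.97 without the farthest kidneys. Fos and Egr1 had an r of 0.99 (p = 0.00556, adjusted p = 0.0125, exact permutation test) and 0.91 without them, with a rho of 0.83 that did not pass (p = 0.0583, adjusted p = 0.105).

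The other 2 pairs that passed were of fat and of clock genes. Adipoq and Fabp4, the fatty acid carrier of fat cells, had an r of 0.94 (p = 0.00278, adjusted p = 0.0125, exact permutation test), a rho of 0.94 (p = 0.0167, adjusted p = 0.0375), and an r of 0.65 without replicates 6 and 8. Dbp and Arntl had an r of -0.91 (p = 0.00972, adjusted p = 0.0175, exact permutation test) and a rho of -0.94 (p = 0.0167, adjusted p = 0.0375), but an r of -0.31 without replicates 6 and 9. This relation therefore rests on those kidneys here. In the other 20 kidneys, with group means removed, the correlation of Dbp and Arntl was -0.96. Lcn2 and Il1f6 (r = 0.79, p = 0.0611, adjusted p = 0.0917, rho = 0.71, p = 0.136, adjusted p = 0.204, exact permutation test) did not pass, and their r was 0.05 without replicates 9 and 11. Lcn2 and Havcr1 (r = -0.47, p = 0.371, adjusted p = 0.417, rho = -0.14, p = 0.803, adjusted p = 0.903, exact permutation test) changed sign without the same kidneys (r = 0.82). Dbp and Per1 (r = 0.56, p = 0.208, adjusted p = 0.268, rho = 0.54, p = 0.297, adjusted p = 0.382) and Slc34a1 and Umod (r = 0.13, p = 0.747, adjusted p = 0.747, rho = 0.09, p = 0.919, adjusted p = 0.919) did not pass the exact permutation test.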

How the data were processed

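RNA of whole kidneys was measured on Affymetrix arrays. The authors deposited log2 values, made with RMA per the submitters' notes, with 1 probe set per Entrez gene, and normalized and batch-corrected the arrays together. The batches and software versions are not given in the sources used here. Of 16539 rows, 64 array controls and 695 without a gene name were left out, and 15780 genes were kept as deposited. No column of values was left out. Precision is set by the number of arrays. Genes with a mean of at least 6 were ranked by SD. The 300 of largest SD were clustered (average linkage on 1 minus Pearson's r, tree cut at 0.3, groups of at least 10). Spreads were compared on absolute deviations from the group mean, scaled for group size, with limma (3.58.1, under R 4.3.3; functions lmFit and eBayes, Benjamini-Hochberg adjustment over all genes tested, threshold 0.05). Pairs of genes were tested with exact permutation tests (Python 3.11.15, scipy 1.17.1). Of 12 pairs planned, 9 had both genes measured. Lists of genes (35) were matched by symbol or RefSeq synonym. Counts of list genes highest or lowest in a kidney are given without the share over all genes and were not tested. Genes named are the 25 of largest SD, the 3 most raised and 3 most lowered in each kidney, those nearest to each group's profile, the most variable of each list, members of pairs, genes at the limit on the mean and genes passing in a spread comparison. Others were chosen after their values were seen, as was the correlation without 30-week replicate 2. The members and lists were chosen with earlier results of these data known. Scripts were tested on simulated data. Planted groups were recovered, and planted differences in spread were recovered in size but seldom passed the threshold. Alternatives were centring, quantile normalization, other limits, other clusterings, other deviations, a joint fit, the replicate number as a block and each kidney left out in turn.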

Additional observations from a re-analysis of the deposited data

Results flagged for a closer look

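In 10 of 66 sets of 6 values (list scores, the 25 genes of largest SD with Lcn2, Il1f6 and Havcr1, and the mean profiles of the groups of genes), a single kidney lay farther from the others than Dixon's 95% critical value of 0.625 allows. Chance flags about 1 in 20 sets not chosen on their values. That rate does not apply to 8 of the 10, which are genes of largest SD or group profiles and were selected on these kidneys, and the 10 are not independent, since genes of a list recur in a group. The rest are scores of lists chosen with earlier results of these data known, so the rate need not apply to them either. Replicate 8 stood apart in 5 of the 10. Its score was 1.01 for the glucocorticoid-inducible list (-0.25 to -0.16 in the other 5 kidneys) and -0.86 for the red blood cell list (0.04 to 0.40), which holds 3 genes and follows Alas2. It stood at 1.10 in the mean profile of group 2 (-0.34 to -0.04), at -1.15 in that of group 4 (-0.14 to 0.39) and at 4.64 log2 units for Alas2 (7.21 to 8.07). Replicate 6 stood apart in the mean profile of group 5 at -1.78 (-0.06 to 0.67), in Adipoq at 6.12 (9.84 to 10.52) and in Car3 at 7.47 (10.17 to 11.03). Replicate 11 stood apart in Ighg3 at 5.35 (8.45 to 9.82) and in Ighg2b at 4.66 (8.28 to 8.96). The kidneys were kept in all results.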

How the results depend on the processing

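The number of genes with an SD of at least 0.5 (236) stayed within 1.5 times under centring, quantile normalization again, other limits on the mean, the median absolute deviation and each kidney left out. The 6 groups of genes became 13 with 600 genes clustered, and numbered 4 to 8 under the other settings. With replicate 8 left out, 13 of the 62 genes of group 2 stayed among the 300 of largest SD, and 6 of these shared a group. With replicate 6 left out, none of group 5 shared a group. Of group 6, 8 genes stayed among the 300 with centring, 7 at a mean of at least 5 and without replicate 7, and 6 with no limit; each time they shared a cluster of fewer than 10 genes, and so formed no group. After quantile normalization 2 of the 10 left shared a group. With the tree cut at 0.2, none of group 4 shared a group. In the spread comparison with early remission (6 genes), 3 passed at a mean of at least 7 and 0 with squared deviations, with the joint fit over the 4 groups and with the replicate block. With each kidney left out, 0 to 10 passed. Against the TACI-Ig group (0 genes), 10 passed in the joint fit, and 0 to 312 with each kidney left out. Against the 30-week group (0 genes), 3 passed in the joint fit, 0 with the replicate block and 0 to 4 with each kidney left out. The numbers do not pair the kidneys, since the deviations of same-numbered kidneys correlated between -0.22 and 0.09, and no paired fit with the TACI-Ig group was possible because they share no numbers. Of the 9 pairs of genes, 5 passed with centring, and 0 to 5 with each kidney left out. SDs of the 25 genes fell by more than 1.5 times in 16 of 200 recalculations, each in a different gene and each from leaving out a kidney. Arrays hold no read counts, so no limit from depth applies, and their number sets the precision.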
